A study of Homo sapiens with 6 samples.

Results

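The messenger RNAs of 51 human genes of double-strand break repair and the Fanconi anemia pathway were examined in HCT116 cells with and without SNORA28 overexpression. The genes were listed by function, without a threshold on expression but with earlier results of these data known. They fall into 6 roles: 12 genes of break signalling, 4 of end sensing and resection, 7 of end joining, 13 of homologous recombination, 11 of the Fanconi pathway, and 4 of the PARP and single-strand break repair branch. All 51 were listed among the 60612 genes of each table, and 48 reached a mean of 1 FPKM (fragments scaled by transcript length and by library size) over the 6 libraries and were tested.

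HCT116 is an established colorectal carcinoma line of epithelial origin. Cells carried either a control lentivirus (LV-NC, 3 libraries) or a lentivirus expressing SNORA28, a small nucleolar RNA (LV-SNORA28, 3 libraries), both in the GV235 vector, and no irradiation is named for these 6 libraries. The study asked how SNORA28 relates to the growth and radioresistance of colorectal cancer cells, and the comparison here asks whether genes that repair radiation damage differed in expression between the groups. No source says whether the 3 libraries of a group came from separate cultures, so p-values measure only the spread between these samples, which may be technical.

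A double-strand break is detected by the MRE11-RAD50-NBN complex, which activates the kinase ATM, while single-stranded DNA at resected ends or stalled forks activates ATR. Broken ends are either rejoined directly by the Ku and DNA-PK machinery or, once trimmed back, repaired from the sister chromatid by homologous recombination, which operates mainly in S and G2 phase. The Fanconi pathway unhooks crosslinks between DNA strands and hands the resulting break to homologous recombination, and PARP enzymes mark strand breaks for repair.

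The level of SNORA28 itself was 0.92, 0 and 0.64 FPKM in LV-NC, compared with 15.01, 13.66 and 15.20 FPKM in LV-SNORA28, so the libraries matched their labels. The tables summed to between 306048 and 374676 FPKM, with 24231 to 25771 genes above 0, and read depth was not given. The share of the sum held by mitochondrially encoded genes was 44.4% ± 2.83 in LV-NC, compared with 37.3% ± 1.25 in LV-SNORA28 (SD, n = 3 each, exact two-sided permutation test, p = 0.1, the smallest that 3 against 3 libraries allow). The 8 epithelial markers were all expressed, from 4.97 FPKM upward, whereas the fibroblast genes COL1A2, DCN and LUM were at 0 in all 6 libraries. COL1A1 (3.16 to 4.46 FPKM) and the macrophage-associated gene CD68 were the other-lineage markers above 1 FPKM. CD68 was at 2.07, 2.06 and 0.95 FPKM in LV-NC and 2.27, 4.12 and 3.14 FPKM in LV-SNORA28, without overlap (log2 fold change 0.64, limma unadjusted p = 0.0306, adjusted p = 0.134), which meets the threshold of the study, whereas the leukocyte gene PTPRC was at or below 0.08 FPKM.

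Of the 48 genes tested, 4 were significantly upregulated in LV-SNORA28 and 0 were downregulated (limma, adjusted p below 0.05 over all genes tested): PARP2, RNF8, BRCA1 and XRCC2. That is 8.33% of the genes, compared with 6.81% of the 12076 genes tested that were higher and 8.91% called in either direction, with 254 genes lower, so the share called was near the background. At an unadjusted p below 0.05, 12 of the 48 (25.0%) were higher and 0 lower, beside 22.0% of all genes tested that were higher. The threshold of the study (fold change above 1.5 at an unadjusted p below 0.05) was read here on log2(FPKM + 1) in the limma fit. On that scale 0 of the 48 passed, compared with 3.79% of all genes tested.

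The increases were small and mostly in one direction. Differences were positive in 43 of 48 genes (89.6%), compared with 66.7% of all genes tested, and their median log2 fold change was 0.15, compared with 0.09 for all genes tested. Libraries of the groups did not overlap in 16 of 48 genes (33.3%), all higher in LV-SNORA28, beside 27.0% of all genes tested that were higher and 8.16% that were lower. When the libraries were quantile normalized, the median of all genes moved to -0.00127 and the members' median to 0.06. The positive share fell to 28 of 48 (58.3%), compared with 49.7% of all genes tested. On that scale 12 genes did not overlap, 10 of them higher and 2 lower. The share over all genes was not computed for this count.

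In these bulk libraries, more cells in a given state and more RNA per cell cannot be told apart. The summed level of 20 G2 and mitosis genes was 534.55 to 618.02 FPKM in LV-NC and 704.74 to 749.65 FPKM in LV-SNORA28, without overlap, and 8 of the 20 rose (40.0%, compared with 6.81% of all genes tested), with a median log2 fold change of 0.33. The 22 S phase genes summed to 586.58 to 776.81 FPKM in LV-NC and 727.13 to 801.13 FPKM in LV-SNORA28, which overlap, and 1 of them rose (4.55%). BRCA1, FANCD2, FANCI and BLM are among the repair genes known to be transcribed most in S and G2 phase. The part of the cell cycle in the differences of the repair genes was not tested.

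**Figure D1:**
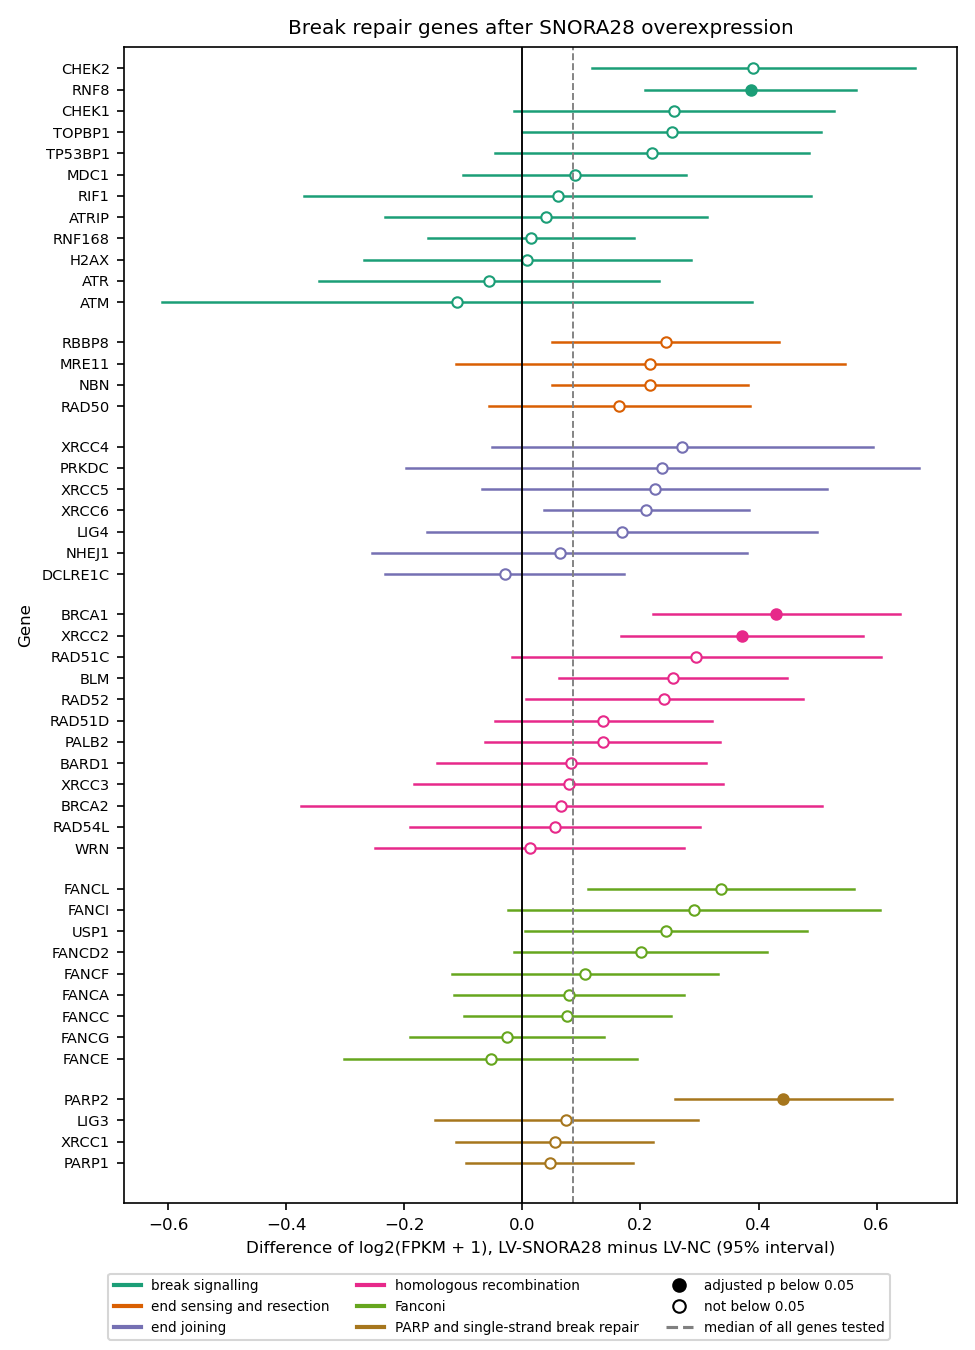
Difference in log2(FPKM + 1) between LV-SNORA28 and LV-NC for the 48 genes tested, with the 95% interval of the limma fit; genes are grouped and colored by role, filled points have an adjusted p below 0.05, and the dashed line is the median of all genes tested (0.09). The 4 filled points are RNF8, BRCA1, XRCC2 and PARP2, and 43 of the 48 points lie above 0.

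The promoters of the 4 upregulated genes are shown because these are the genes that passed the test. Each window spans 250 bases before to 50 after the start of the canonical transcript (GENCODE release 44, hg38, 5′ to 3′ on the strand of the gene), and capitals mark matches to the motifs searched, on either strand:
PARP2 (chr14:20343385-20343684, plus strand): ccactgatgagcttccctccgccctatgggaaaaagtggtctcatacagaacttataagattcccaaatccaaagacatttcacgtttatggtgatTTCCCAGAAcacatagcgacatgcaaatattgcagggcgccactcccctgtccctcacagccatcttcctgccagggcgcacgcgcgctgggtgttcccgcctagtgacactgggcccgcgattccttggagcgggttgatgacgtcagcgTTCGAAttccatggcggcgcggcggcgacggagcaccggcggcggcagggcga
RNF8 (chr6:37353733-37354032, plus strand): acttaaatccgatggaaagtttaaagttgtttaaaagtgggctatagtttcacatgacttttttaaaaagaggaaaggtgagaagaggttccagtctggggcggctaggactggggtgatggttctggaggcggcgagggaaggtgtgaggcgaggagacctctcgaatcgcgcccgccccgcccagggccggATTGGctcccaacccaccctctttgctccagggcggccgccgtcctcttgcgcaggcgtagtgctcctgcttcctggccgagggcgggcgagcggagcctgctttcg
BRCA1 (chr17:43125315-43125614, minus strand): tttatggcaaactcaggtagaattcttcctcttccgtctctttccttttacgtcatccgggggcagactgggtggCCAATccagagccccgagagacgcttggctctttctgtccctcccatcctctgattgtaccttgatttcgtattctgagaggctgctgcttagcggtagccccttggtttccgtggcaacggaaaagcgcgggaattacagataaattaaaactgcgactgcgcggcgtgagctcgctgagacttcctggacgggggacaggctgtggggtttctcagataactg
XRCC2 (chr7:152676092-152676391, minus strand): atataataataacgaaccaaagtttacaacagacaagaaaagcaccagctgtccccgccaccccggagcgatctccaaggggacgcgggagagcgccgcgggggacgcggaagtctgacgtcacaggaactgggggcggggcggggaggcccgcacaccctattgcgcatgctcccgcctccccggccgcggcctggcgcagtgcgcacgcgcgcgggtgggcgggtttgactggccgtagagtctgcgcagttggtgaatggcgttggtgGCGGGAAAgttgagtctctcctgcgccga

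The motifs searched were E2F (TTTCCCGC, TTTGGCGC or TTTCGCGC), NF-Y (CCAAT), CHR (TTTGAA or TTCGAA) and STAT (TTCNNNGAA). The 4 promoters did not share a motif of this set. PARP2 held a STAT match and a CHR match, RNF8 and BRCA1 each held an NF-Y match, and XRCC2 held an E2F match. Over the 51 genes, NF-Y letters occurred in 22 promoters (43.1%), compared with 36.4% of 10570 promoters of protein-coding genes tested, and E2F letters in 5 (9.80%), compared with 4.97%. CHR letters occurred in 8 (15.7%), compared with 9.88%, and STAT letters in 6 (11.8%), compared with 5.36%. A match is a description of the letters and not a bound site.

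PARP2, on chr14:20343615-20357904 (plus strand, ENSG00000129484), encodes a DNA-dependent poly(ADP-ribose) polymerase that responds to strand breaks. It was at 7.58, 8.75 and 8.87 FPKM in LV-NC and 11.36, 12.17 and 11.72 FPKM in LV-SNORA28. Each LV-SNORA28 library lay above each LV-NC library. The mean rose from 8.40 ± 0.713 to 11.8 ± 0.406 FPKM (SD, n = 3 each), 39.9% higher, and the log2 fold change was 0.44 (SE 0.08, 95% interval 0.26 to 0.63, limma adjusted p = 0.0227). The call was lost without LV-NC replicate 2 (adjusted p = 0.0510) and without LV-SNORA28 replicate 1, 2 or 3 (0.0588, 0.0879 and 0.0817), and under quantile normalization the adjusted p was 0.0534. With 1 library left out at a time, its log2 fold change was 0.38 to 0.48. In those fits 2.31% to 5.20% of all genes tested were called, compared with 8.91% in the main fit.

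The other 3 genes of this branch did not pass the test and had log2 differences of at most 0.07. PARP1, the main poly(ADP-ribose) polymerase, was abundant at 49.75, 48.98 and 54.09 FPKM in LV-NC and 52.81, 52.10 and 52.81 FPKM in LV-SNORA28, with overlapping groups (log2 fold change 0.05, limma adjusted p = 0.658, and -0.01 after quantile normalization). LIG3, the ligase that seals single-strand breaks with the scaffold protein XRCC1, was at 3.26, 2.59 and 2.59 FPKM in LV-NC and 3.10, 2.87 and 3.04 FPKM in LV-SNORA28 (0.07, adjusted p = 0.647, and -0.02 after quantile normalization). XRCC1 itself had a log2 fold change of 0.05 (adjusted p = 0.658).

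Among the 12 genes of break signalling, RNF8 rose and the other 11 did not pass the test, with a median log2 fold change of 0.07. RNF8, on chr6:37353979-37394734 (plus strand, ENSG00000112130), encodes the ubiquitin ligase that is recruited by MDC1 to chromatin beside a break. Its level was 2.50, 2.78 and 2.64 FPKM in LV-NC and 3.75, 3.99 and 3.54 FPKM in LV-SNORA28. The lowest LV-SNORA28 library thus exceeded the highest LV-NC library. Means were 2.64 ± 0.140 and 3.76 ± 0.225 FPKM (SD, n = 3 each), 42.4% higher, and the log2 fold change was 0.39 (SE 0.07, 95% interval 0.21 to 0.57, limma adjusted p = 0.0298). The call was lost when any 1 of the 6 libraries was left out (log2 fold change 0.35 to 0.42, adjusted p 0.0567 to 0.111) and with quantile normalization (0.103).

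The genes that act next to RNF8 did not pass the test. RNF168, the ligase that extends its ubiquitin mark, had a log2 fold change of 0.01 (limma adjusted p = 0.919), and MDC1 one of 0.09 (0.513). H2AX, the histone variant phosphorylated around breaks, was the most abundant signalling gene at 64.35, 88.23 and 79.23 FPKM in LV-NC and 76.07, 80.33 and 74.93 FPKM in LV-SNORA28. Its means were 77.3 ± 12.1 and 77.1 ± 2.85 FPKM (SD, n = 3 each), and the log2 difference of 0.0083 (adjusted p = 0.972) became -0.0920 with quantile normalization. Poly(A) selection captures only the polyadenylated form of its transcript.

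The checkpoint kinases and their activators did not pass the test either, although groups lay apart for CHEK2, TOPBP1 and TP53BP1. CHEK2, the kinase activated by ATM, was at 4.01, 4.49 and 4.69 FPKM in LV-NC and 5.04, 6.69 and 6.60 FPKM in LV-SNORA28. LV-SNORA28 replicate 1 lay closer to LV-NC than the other two (log2 fold change 0.39, SE 0.11, limma adjusted p = 0.0835). Without that library it was 0.50 (adjusted p = 0.0484). CHEK1, the kinase activated by ATR, and TOPBP1, the activator of ATR, had log2 fold changes of 0.26 (adjusted p = 0.198) and 0.25 (0.178). TP53BP1, which protects ends from resection, had 0.22 (0.257). The kinases at the head of the pathway had negative values that did not pass the test, -0.11 for ATM (0.775) and -0.06 for ATR (0.800). ATRIP, the partner of ATR, and RIF1, which acts with TP53BP1, had 0.04 (0.851) and 0.06 (0.861).

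None of the 4 genes of end sensing and resection passed the test, although all 4 differences were positive (log2 0.16 to 0.24, median 0.22), also with quantile normalization. NBN, the regulatory subunit of the MRE11-RAD50-NBN complex, was at 7.39, 7.06 and 7.30 FPKM in LV-NC and 8.51, 8.06 and 9.22 FPKM in LV-SNORA28. RBBP8, which encodes CtIP, the partner of MRE11 in resection, was at 9.90, 10.76 and 11.48 FPKM in LV-NC and 11.88, 13.18 and 13.50 FPKM in LV-SNORA28. Both genes had groups that did not overlap, with log2 fold changes of 0.22 (limma adjusted p = 0.103) and 0.24 (0.110). The nuclease MRE11 overlapped between groups at 3.40, 2.15 and 2.81 FPKM in LV-NC and 2.99, 3.41 and 3.71 FPKM in LV-SNORA28 (0.22, adjusted p = 0.354, and 0.09 without LV-NC replicate 2). RAD50, its ATPase partner, had 0.16 (0.299).

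End joining genes also had 0 of 7 called, with a median log2 fold change of 0.21. XRCC6, which encodes Ku70 and was the most abundant of the 51 genes, was at 198.32, 220.17 and 230.53 FPKM in LV-NC and 240.97, 252.28 and 256.71 FPKM in LV-SNORA28. It was the end joining gene whose groups did not overlap (log2 fold change 0.21, SE 0.07, limma adjusted p = 0.121). Its partner XRCC5, which encodes Ku80, ranged from 75.34 to 85.50 FPKM in LV-NC and from 78.98 to 105.21 FPKM in LV-SNORA28 (0.22, adjusted p = 0.287). XRCC4, the partner of the ligase LIG4, had the highest log2 fold change of this role at 0.27, but LV-SNORA28 replicate 3 (10.10 FPKM) fell within the LV-NC range of 9.69 to 10.85 FPKM (adjusted p = 0.248). PRKDC, the catalytic subunit of DNA-PK, was at 33.87, 23.95 and 37.55 FPKM in LV-NC and 35.48, 32.77 and 43.58 FPKM in LV-SNORA28. LV-NC replicate 2 was its lowest library, and the log2 fold change of 0.24 (SE 0.18, adjusted p = 0.444) was 0.05 without it (0.842). LIG4 and NHEJ1, a cofactor of this ligation, had 0.17 (0.473) and 0.06 (0.798), or 0.05 and -0.06 without LV-NC replicate 2, and DCLRE1C, which encodes the nuclease Artemis, had -0.03 (0.851).

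**Figure D2:**
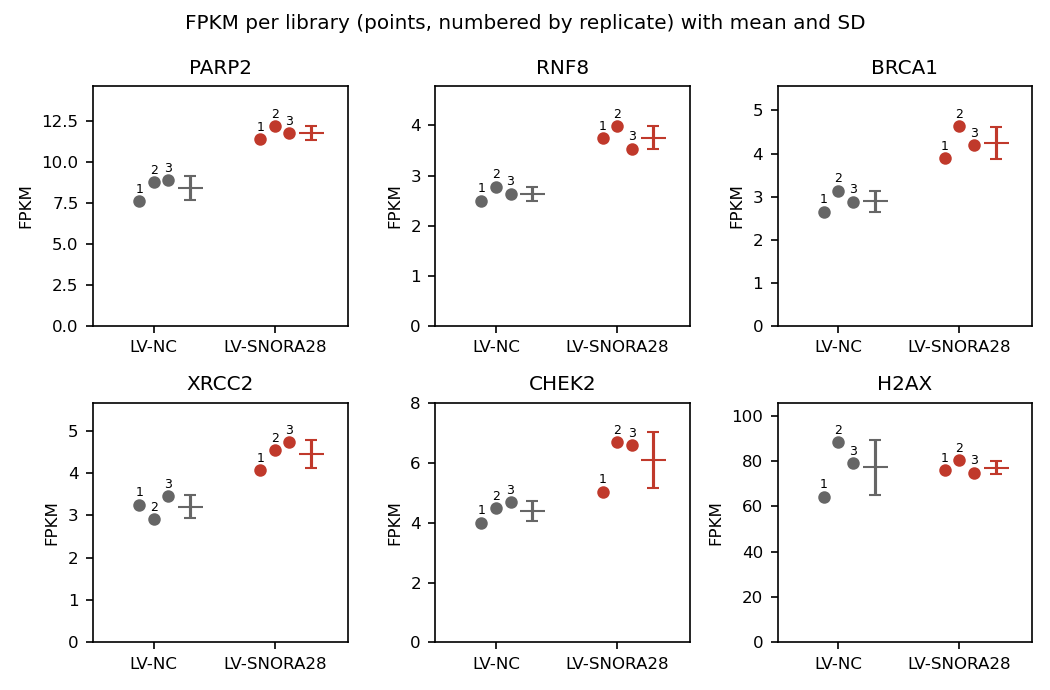
FPKM (vertical axes from 0) of PARP2, RNF8, BRCA1, XRCC2, CHEK2 and H2AX in each library, with gray points for LV-NC, red points for LV-SNORA28, numbers for the replicate, and the mean and SD beside the points (n = 3). The groups lie apart in the first 5 panels and overlap for H2AX (64.35 to 88.23 FPKM in LV-NC and 74.93 to 80.33 FPKM in LV-SNORA28).

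Homologous recombination held 2 of the 4 upregulated genes, out of 12 tested in this role (16.7%), compared with 6.81% of all genes tested that were higher. BRCA1, on chr17:43044295-43170245 (minus strand, ENSG00000012048), encodes a ubiquitin ligase that promotes resection and loading of the recombinase. It was at 2.65, 3.14 and 2.88 FPKM in LV-NC and 3.90, 4.64 and 4.19 FPKM in LV-SNORA28, without overlap. Means were 2.89 ± 0.245 and 4.24 ± 0.373 FPKM (SD, n = 3 each), 46.8% higher, which was the largest relative increase of means among the 4, with a log2 fold change of 0.43 (SE 0.09, 95% interval 0.22 to 0.64, limma adjusted p = 0.0345). The partial copy BRCA1P1 near its start can share reads with its first exons. The call was lost without any 1 library (log2 fold change 0.38 to 0.48, adjusted p 0.0553 to 0.114). It was also lost with quantile normalization (0.112) and with a correction for transcript length and GC content (0.0673).

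XRCC2, on chr7:152644776-152676193 (minus strand, ENSG00000196584), encodes a paralog of the recombinase that helps assemble its filament. It was at 3.25, 2.91 and 3.46 FPKM in LV-NC and 4.07, 4.54 and 4.72 FPKM in LV-SNORA28, again without overlap. Means were 3.21 ± 0.278 and 4.44 ± 0.336 FPKM (SD, n = 3 each), 38.6% higher, and the log2 fold change was 0.37 (SE 0.09, 95% interval 0.17 to 0.58, limma adjusted p = 0.0467). The call did not survive leaving out any 1 library (log2 fold change 0.32 to 0.42, adjusted p 0.0735 to 0.148). Nor did it survive quantile normalization (0.0872) or rescaling to the same sum of nuclear-encoded genes (0.0667).

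The other 10 recombination genes tested did not pass, and all 10 differences were positive, compared with 66.7% of all genes tested. With quantile normalization 5 of the 10 were negative, and 49.7% of all genes tested were positive. BLM, a helicase that processes recombination intermediates, was at 3.17, 3.33 and 3.76 FPKM in LV-NC and 4.12, 4.53 and 4.16 FPKM in LV-SNORA28 (log2 fold change 0.26, limma adjusted p = 0.0993). RAD52, an annealing protein, and RAD51D, another recombinase paralog, also had groups that did not overlap, with 0.24 (0.170) and 0.14 (0.297). RAD51C, at 4.06, 5.18 and 5.71 FPKM in LV-NC and 6.59, 5.46 and 6.90 FPKM in LV-SNORA28, overlapped at a log2 fold change of 0.29 (0.200). The partners of BRCA1 differed less: BARD1 had 0.08 (0.616), PALB2 0.14 (0.336) and BRCA2 0.07 (0.850). XRCC3, RAD54L and the helicase WRN lay between 0.01 and 0.08 (0.685, 0.768 and 0.956).

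In the Fanconi pathway, 0 of 9 tested genes were called and the median log2 fold change was 0.11. FANCL, the ubiquitin ligase of the core complex, was at 4.80, 4.20 and 5.30 FPKM in LV-NC and 6.17, 6.75 and 5.88 FPKM in LV-SNORA28. Its groups lay apart, and the log2 fold change of 0.34 (SE 0.09) had a limma adjusted p of 0.0753. FANCI, which FANCL ubiquitinates together with FANCD2, was at 6.13, 6.03 and 8.47 FPKM in LV-NC and 7.84, 8.59 and 9.25 FPKM in LV-SNORA28 (0.29, SE 0.13, adjusted p = 0.209). USP1, the enzyme that removes this ubiquitin and the most abundant gene of this role, was at 12.92, 14.08 and 15.67 FPKM in LV-NC and 15.11, 17.86 and 18.09 FPKM in LV-SNORA28, so that 1 LV-SNORA28 library lay below the highest LV-NC library (0.24, adjusted p = 0.171). FANCD2 did not overlap and had 0.20 (0.205).

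The other members of the Fanconi core complex had smaller differences. FANCF, FANCC and FANCA had log2 fold changes of 0.11 (limma adjusted p = 0.508), 0.08 (0.543) and 0.08 (0.572), and FANCE and FANCG had -0.05 (0.779) and -0.03 (0.841). FANCC was the third Fanconi gene whose groups did not overlap, at 1.51 to 1.63 FPKM in LV-NC and 1.67 to 1.76 FPKM in LV-SNORA28.

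The 3 genes below the filter were FANCM, FANCB and RAD51B. FANCM, the translocase that anchors the core complex to DNA, was at 0.62, 0.44 and 0.61 FPKM in LV-NC and 0.93, 0.80 and 1.09 FPKM in LV-SNORA28, without overlap. Its mean was 68.9% higher, and on log2(FPKM + 1) the log2 fold change was 0.32 (limma with no filter, unadjusted p = 0.0248). RAD51B, another recombinase paralog, did not overlap either, at 0.41, 0.35 and 0.37 FPKM in LV-NC and 0.47, 0.46 and 0.64 FPKM in LV-SNORA28. FANCB, a core complex subunit, overlapped at 0.62, 0.53 and 0.92 FPKM in LV-NC and 0.75, 0.67 and 0.78 FPKM in LV-SNORA28. A limma fit with no filter, over 32761 genes, gave adjusted p-values of 0.251, 0.495 and 0.872. In that fit 0 of the 51 genes were called, compared with 1.21% of all genes. An unadjusted p below 0.05 was reached by 12 of the 51 (23.5%), all higher, compared with 11.0% of all genes in that fit, most of which lay below the filter.

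**Figure D3:**
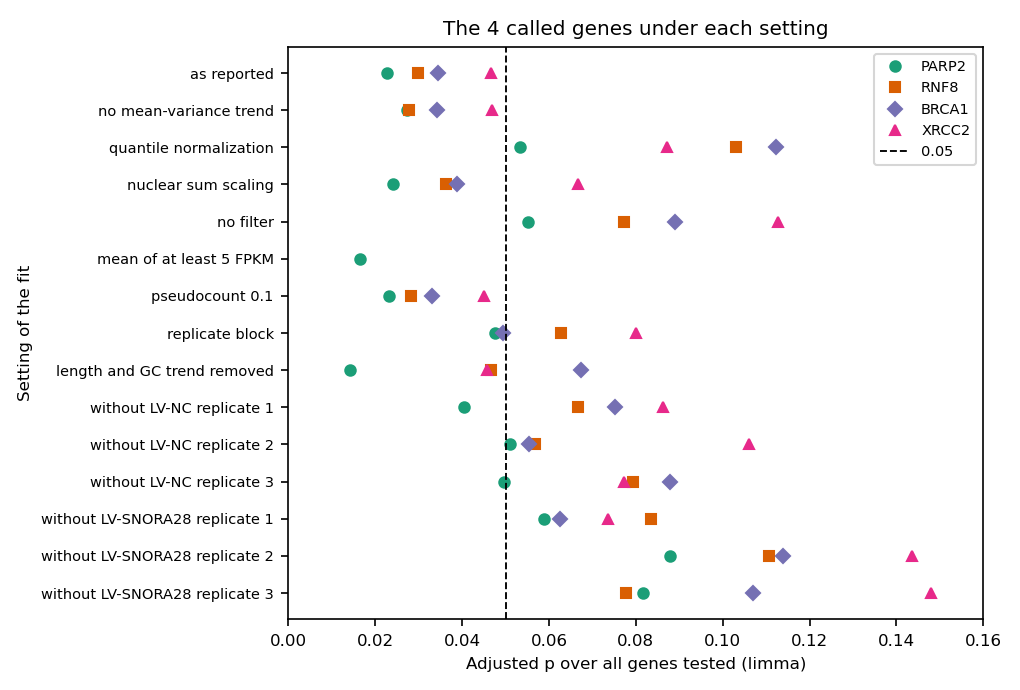
Adjusted p of PARP2, RNF8, BRCA1 and XRCC2 over all genes tested in limma under each setting of the fit, with a line at 0.05. PARP2 has the lowest main value (0.0227) and XRCC2 the highest (0.0467). All 4 lie above the line with quantile normalization, with no filter, without LV-NC replicate 2 and without LV-SNORA28 replicate 1, 2 or 3. At a mean of at least 5 FPKM only PARP2 was tested.

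LV-NC replicate 2 was the lowest library, or tied for the lowest, in 28 of the 48 genes (58.3%), compared with 32.0% of all genes tested, and LV-SNORA28 replicate 3 was the highest in 24 of 48 (50.0%), compared with 27.0%. The low values of LV-NC replicate 2 gathered in long transcripts. The canonical transcripts of the 48 genes had a median length of 4678 nt, compared with 2923 nt for all genes tested. Among the 10 genes with transcripts of at least 8000 nt, a limit chosen after seeing the values, LV-NC replicate 2 was lowest or tied for lowest in 10 of 10, including ATM, ATR, BRCA2, PRKDC and TP53BP1, and in 18 of the 38 shorter ones. Over all genes tested the same held for 70.2% of 806 long and 29.2% of 11247 shorter transcripts. ATM, for example, was at 1.76, 0.56 and 1.03 FPKM in LV-NC and 0.90, 0.75 and 1.09 FPKM in LV-SNORA28.

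These values also differed with and without this library. The median log2 fold change was 0.07 for the 10 long and 0.21 for the 38 shorter genes, and without LV-NC replicate 2 it was -0.02 and 0.13. Without that library, 0 of the 48 genes were called, compared with 4.04% of all genes tested. Of the 48, 36 (75.0%) were positive compared with 62.2% of all genes tested, and the median of the 48 was 0.09, compared with 0.07. Log2 fold changes without it were 0.47 for PARP2, 0.41 for RNF8, 0.48 for BRCA1 and 0.32 for XRCC2. With it they were 0.44, 0.39, 0.43 and 0.37. Across the 48 genes, which share the library, Spearman's rho between transcript length and the deviation of LV-NC replicate 2 from the other 2 LV-NC libraries was -0.56, compared with -0.36 across 12053 genes. Without it, TP53BP1 went from 0.22 to 0.10, RIF1 from 0.06 to -0.12 and BRCA2 from 0.07 to -0.11. ATM went from -0.11 to -0.31 and ATR from -0.06 to -0.16, and neither passed the test (limma adjusted p 0.317 and 0.404).

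**Figure D4:**
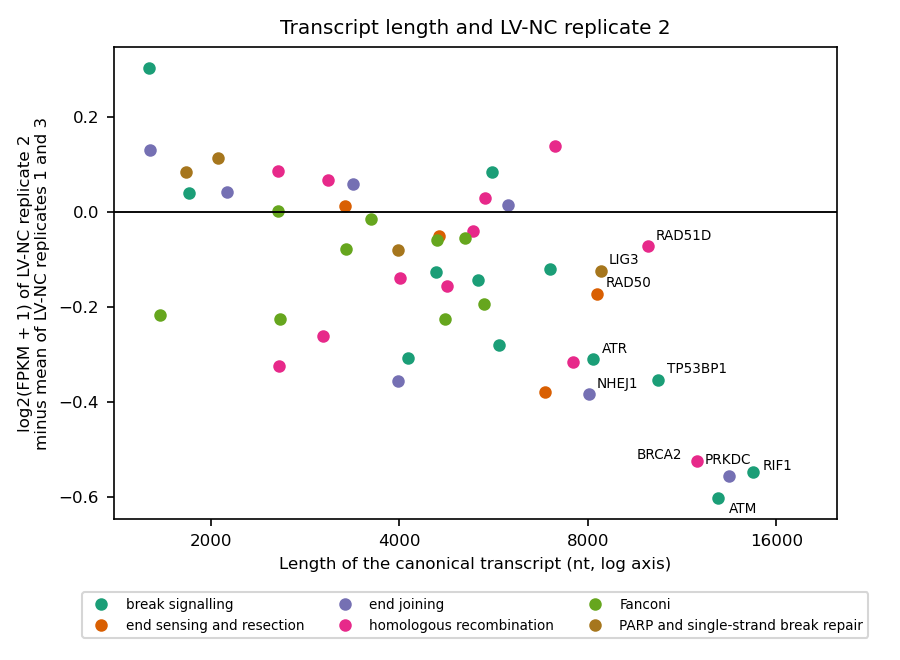
Deviation of LV-NC replicate 2 from the mean of LV-NC replicates 1 and 3, in log2(FPKM + 1), against the length of the canonical transcript in nt on a log axis, for the 48 genes tested, colored by role. The deviation is below 0 for all 10 transcripts of at least 8000 nt, and its median is -0.37 for them and -0.06 for the 38 shorter ones.

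Many of these genes start next to another gene. A gene on the opposite strand began within 1000 bases upstream of 21 of the 51 genes (41.2%), compared with 28.1% of 10573 protein-coding genes tested. NBR2, a noncoding gene that starts 187 bases from BRCA1, was at 1.27, 1.29 and 1.05 FPKM in LV-NC and 2.11, 1.66 and 2.12 FPKM in LV-SNORA28 (log2 fold change 0.43, limma adjusted p = 0.0503). The groups lay apart for both BRCA1 and NBR2. RPPH1, the RNA of ribonuclease P, starts 228 bases from PARP2 and was at or below 0.56 FPKM in the 6 libraries, but it lacks a poly(A) tail and poly(A) selection captures it poorly. HSCB, an iron-sulfur cluster co-chaperone named here after its values were seen, starts 219 bases from CHEK2. It was at 3.39, 3.56 and 3.30 FPKM in LV-NC and 4.99, 5.35 and 4.98 FPKM in LV-SNORA28 (0.47, adjusted p = 0.0133). Other partners tested ranged from -0.15 for ANKRD49 beside MRE11 (0.825) to 0.38 for MOSPD2 beside FANCB (0.0523). MCM4 beside PRKDC had 0.02 (0.960). Whether neighbouring genes changed together was not tested.

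The sequence that the study's methods list for the LV-NC control contains GTGTCAC, and these letters were searched in 3′ untranslated regions. They occurred in 2 of 51 genes (3.92%), RAD50 and FANCF, compared with 9.70% of 10539 genes tested, and in 0 of the 4 upregulated genes. Beside a share of 9.70%, 4 genes are too few to read the 0. The search describes letters only, and an effect of the control sequence was not tested. The sites start at base 2333 of 3985 in RAD50 and base 167 of 2153 in FANCF, and each is shown with its flanks (sense strand, GENCODE release 44, hg38), the searched letters in capitals:
RAD50: cccggttcaGTGTCACcccattact
FANCF: tggcatgtaGTGTCACggattttct

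Break repair genes outside the 51 were also read. Of 86 listed, 82 were tested, 3 rose (3.66%, compared with 6.81% of all genes tested) and 0 fell, with a median log2 fold change of 0.15. An unadjusted p below 0.05 was reached by 25 (30.5%), all higher, compared with 22.0% of all genes tested. SFR1, a recombination cofactor, was at 7.53, 8.88 and 8.40 FPKM in LV-NC and 10.69, 11.90 and 11.66 FPKM in LV-SNORA28 (log2 fold change 0.42, limma adjusted p = 0.0288). ABRAXAS2, counted here only because it was listed, is the scaffold of a deubiquitinase complex whose part in break repair was not examined. It was at 11.09, 10.63 and 10.78 FPKM in LV-NC and 14.44, 13.25 and 15.30 FPKM in LV-SNORA28 (0.37, 0.0277). PPP4R2, a regulatory subunit of protein phosphatase 4, was at 8.15, 7.96 and 8.04 FPKM in LV-NC and 9.99, 10.11 and 10.51 FPKM in LV-SNORA28 (0.31, 0.0269). All 3 called genes had groups that lay apart. Leaving out 1 library at a time left 0 or 1 of the 82 called, compared with 2.31% to 5.20% of all genes tested. Quantile normalization left 0, compared with 6.84%.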

How the data were processed

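Poly(A)-selected, dUTP-stranded RNA-seq of 6 HCT116 libraries (3 LV-NC, 3 LV-SNORA28) was analysed, and the sample titles gave the groups. For every library the authors deposited FPKM values of 60612 genes under Ensembl identifiers. The processing notes of the submitters name cutadapt 1.9, HISAT2 2.2.1, StringTie 2.1.6, DESeq2, edgeR and hg38, without roles, and the annotation release is not given in the sources used here. FPKM is relative to all mapped fragments, so a change in abundant transcripts, such as the mitochondrial ones, shifts every other gene. Depth could not be recovered: 37.3% to 41.7% of low values in 4987 single-exon genes of 400 to 800 nt were within 0.1 of whole multiples of the best-fitting step. That step was chosen from many tried in each library, and the 20% by chance holds only for a step fixed in advance. No counting interval was therefore given. No libraries were duplicates, since any 2 differed in at least 26342 genes.

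Symbols (60401 identifiers matched, 211 did not), coordinates, transcript lengths and untranslated regions came from GENCODE release 44, and promoter sequence from hg38. Values were transformed to log2(FPKM + 1), which understates the change of low genes, and the 12076 genes averaging 1 FPKM or more were fitted with limma 3.58.1 (R 4.3.3, lmFit, then eBayes with trend). Two-sided p-values were adjusted over all genes tested (Benjamini-Hochberg). The fit was tested on simulated data. Figures used Python 3.11.15 and matplotlib 3.10.9, and the exact permutation test scipy 1.17.1. The genes and lists were chosen with earlier results of these data known.

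Genes were named in full by rule: those with an adjusted p below 0.05, the 2 largest differences and the most abundant gene of each role, genes below the filter, genes at the threshold of the study, and the up to 5 other break repair genes with the smallest adjusted p in each direction. Other members are given by their values because every member is accounted for. Alternatives were no variance trend, quantile normalization, equal sums of nuclear-encoded genes, no filter or a mean of at least 5 FPKM, the replicate number as a block, a pseudocount of 0.1, removal of the trend on transcript length and GC content, a fold change above 2, and leaving out each library. Genes with near-identical copies, such as CHEK2 and FANCD2, are uncertain where reads could be split between copies.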

Additional observations from a re-analysis of the deposited data

How the results depend on the processing

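The 4 called genes were called again without a variance trend and with a pseudocount of 0.1, and 3 of them with nuclear sum scaling and with the length and GC trend removed. Called genes numbered 0 with quantile normalization (6.84% of all genes tested) and with no filter (1.21%), 1 among the 25 genes averaging 5 FPKM or more (14.6%), and 0 to 1 when 1 library was left out, while all genes called numbered 279 to 628. The 0 counts are from limma. The median log2 fold change of 0.15 was 0.0609 with quantile normalization, 0.22 at 5 FPKM or more, and 0.0919 to 0.18 without 1 library. The other break repair genes called, 3 in the report, numbered 0 with quantile normalization and with no filter, and 0 to 1 without 1 library. With the length and GC trend removed they numbered 5 (10.4% of all genes tested were called). At the threshold of the study, read on the log2 scale of each fit, 0 of the members tested passed under any setting run, including a fold change above 2. FANCM, whose mean FPKM was 68.9% higher, was tested only with no filter and a pseudocount of 1. With the replicate number as a block, 2 of the 4 genes (PARP2 and BRCA1) and 1 other break repair gene were called, and 510 genes of all tested. The numbers did not pair the samples (correlations of deviations -0.0441, 0.0914 and 0.00983), and only replicate 2 correlated best with its own number. Differences near 0 changed sign: H2AX was -0.0920 with quantile normalization, -0.0185 with nuclear sum scaling and -0.12 to 0.11 without 1 library, and LIG3 (-0.0191) and PARP1 (-0.00849) changed under quantile normalization. The cause was not tested. Over the named genes, 192 of the alternative values kept their direction and side of the threshold, 34 kept their direction but lost the call, 6 changed sign and 1 gained a call. Unknown depth limits the low genes most.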
